A study of Mus musculus with 6 samples.

Results

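The genes of the cell division machinery were followed in RAW 264.7 cells, a mouse macrophage line, 1 h after stimulation with lipopolysaccharide (LPS) and LPS-binding protein (LBP). A gene belonged to the set when its single annotated symbol began with Ccn and a letter, Cdk, Cdc and a digit, Mcm and a digit, or E2f, with Cdkn1a and the Cdc42 genes left out. By this rule 75 of 10698 named genes were members, through 126 probes. Of these, 71 had a probe with a ratio on every array and were tested, and 4 (Cdk3, Cdk5r1, Cdkn1c and Cdkn2a) did not. No probe with a single symbol represented Ccnb1, E2f2 or E2f4.

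Each of 6 arrays set RNA of treated cells (100 ng/ml LPS and 100 pM LBP) against RNA of untreated cells, both cultured for 1 h, in separate dyes. Treated RNA carried Cy5 on 3 arrays and Cy3 on the other 3, with arrays numbered as sets 1 to 3 in each orientation. The line is spelled RAW 264.7 in the sample titles and RAW 264.4 in part of the descriptions. Nothing in the labels ties the sets to separate cultures, so the spread behind the p-values could be technical. The main test and each SD over sets use 3 set averages, each taken over both orientations. Differences between the arrays within a set are averaged out and do not enter them. Fits on 6 separate arrays or on a single orientation use spread among arrays instead. RAW 264.7 is a single transformed line that divides without added growth factor, which limits it as a model of resting macrophages.

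Progress through the cell cycle is driven by cyclin-dependent kinases (CDKs), each switched on by a cyclin partner and held in check by inhibitors. In G1, D-type and E-type cyclins with their kinases release E2F transcription factors from the retinoblastoma proteins, and E2F then switches on genes for DNA synthesis. The MCM helicase is loaded at origins by Cdc6 and fired by Cdc7 and Cdc45, while A-type and B-type cyclins with Cdk1 carry the cell into mitosis. A further branch of the family, which includes cyclins T, K, C, H and L, acts on RNA polymerase II and on splicing. Of these, cyclin H with Cdk7 also activates other CDKs. In macrophages, LPS is known to hold back proliferation.

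Values are log2 ratios, with arrays carrying treated RNA in Cy3 multiplied by -1, so that a positive value is higher in treated RNA. The direction is the likely one, since every array's description names its Cy5 RNA as test and its Cy3 RNA as control while the numerator goes unstated. Every sign below would turn if the numerator were Cy3. An exact 0 was read as no measured ratio. It made up between 8.99% and 23.9% of all probes on an array, and between 4.76% and 13.5% of the members' probes, with the most zeros on the set 2 array of each orientation. Ratios within an array give no expression level. All 6 macrophage markers looked up (Csf1r, Adgre1, Cd68, Lyz2, Spi1 and Mpeg1) had a ratio on 6 arrays, but so did 3 of 4 T cell, 2 of 2 B cell, 1 of 3 fibroblast and 1 of 4 epithelial markers, so these data do not check the cell identity.

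After 1 h, 4 members rose and 6 fell of 71 tested, by limma on the 3 set averages with Benjamini-Hochberg adjustment over 8331 genes and a call at an adjusted p under 0.05. The genes that rose were Ccnl1, Ccnt1, Ccng2 and E2f5, and those that fell were Cdk20, Cdkn2d, Cdc25b, E2f6, Cdkn2c and Ccnd1. The share called was 14.1%, beside 13.2% of all genes tested, of which 6.96% rose and 6.21% fell, so the members were called at close to the background rate. Counts in the phase groups below are small and are not read as contrasts to these shares. Ratios of members ran from -0.49 to 0.77, their median was 0.00, and their median size without sign was 0.07, the same as the 0.07 of all genes. No member reached 2-fold, a size that 1.06% of all genes reached with a call. The 95% interval lay within 2-fold either way for 71 of 71 members and 98.7% of all genes, and within 1.5-fold for 68 members (95.8%) and 96.0% of all genes. In bulk RNA a changed share of cells in a phase and changed RNA per cell cannot be told apart.

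**Figure D1:**
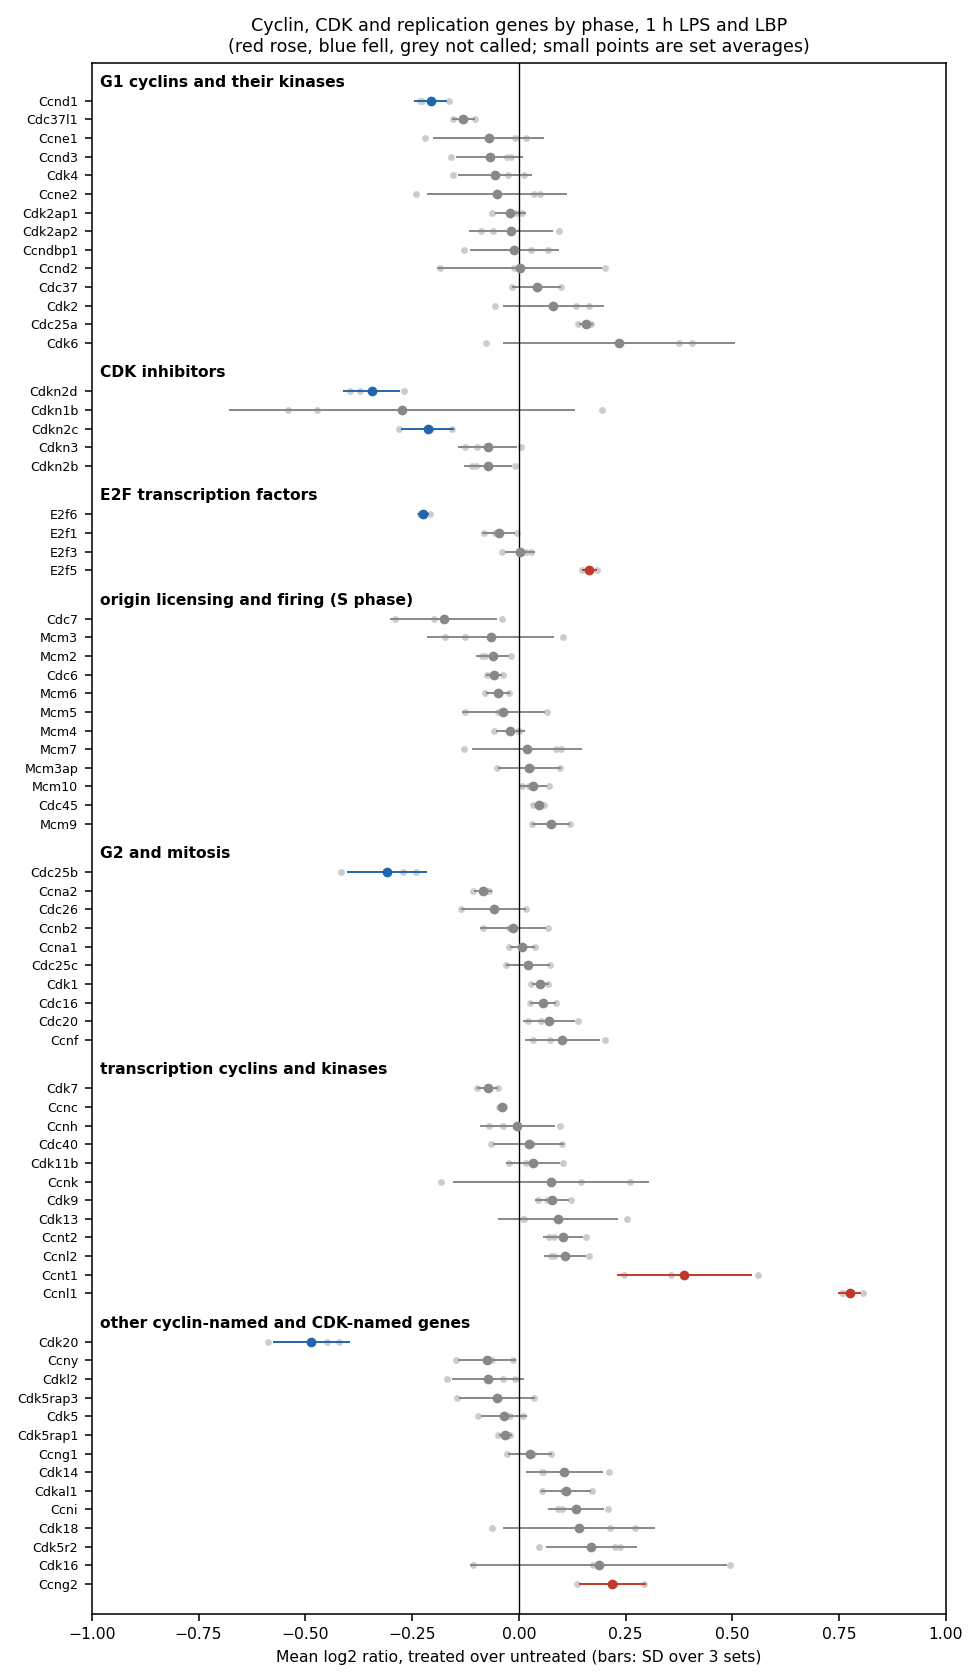
Mean log2 ratio of treated over untreated RNA (horizontal axis) for the 71 tested members, grouped by phase, with bars for the SD over 3 sets and small points for the set averages. Red members rose and blue members fell past the test. The 12 genes grouped under licensing and firing are all grey, beside 13.2% of all genes called, and lie between -0.18 and 0.07.

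**Figure D2:**
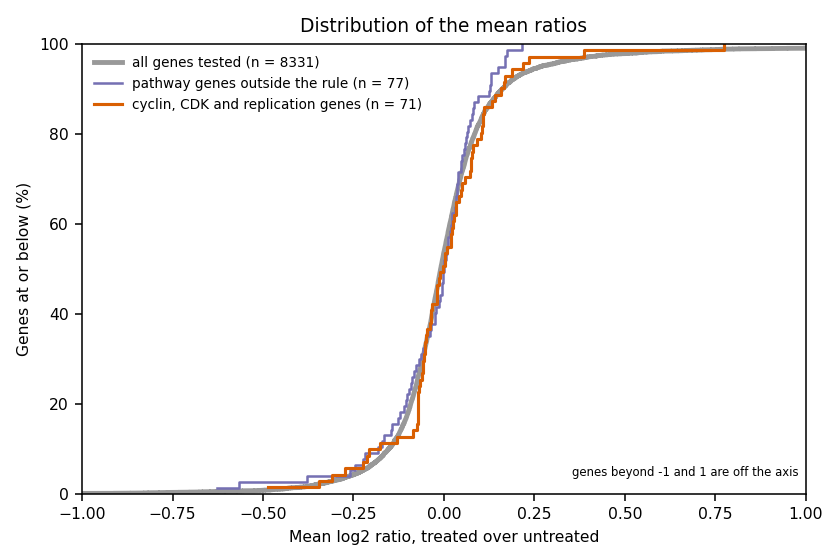
Cumulative share of genes (vertical axis, percent) at or below each mean log2 ratio (horizontal axis) for the 71 members, 77 pathway genes outside the rule and all 8331 genes tested. The curves cross 0 close together, with medians of 0.00 for the members and -0.01 for all genes.

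The transcription cyclins and kinases held the largest rises: 2 of 12 tested rose, none fell, and their median was 0.08. Ccnl1, cyclin L1, a partner of the Cdk11 kinases in pre-mRNA splicing, had ratios of 0.75, 0.87 and 0.79 for sets 1 to 3 in the Cy5 orientation, where Cy5 marks the treated RNA, and of 0.77, 0.65 and 0.83 in the Cy3 orientation. All 6 arrays were thus high and the orientations overlapped. Its mean was 0.77 ± 0.03 (SD, n = 3 sets), or 1.71-fold higher, with an adjusted p of 0.00012 (limma). Both of its probes passed, at 0.83 and 0.72. Ccnl1 was the member with the largest difference in either direction.

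Because Ccnl1 led the members, its promoter is shown as RefSeq's GRCm38.p6 table gives it, 300 bases around the start, at chr3:65958200-65958499 on the minus strand, 5′ to 3′. Capitals mark the single E2F match, which lies 68 bases before the start.
Ccnl1: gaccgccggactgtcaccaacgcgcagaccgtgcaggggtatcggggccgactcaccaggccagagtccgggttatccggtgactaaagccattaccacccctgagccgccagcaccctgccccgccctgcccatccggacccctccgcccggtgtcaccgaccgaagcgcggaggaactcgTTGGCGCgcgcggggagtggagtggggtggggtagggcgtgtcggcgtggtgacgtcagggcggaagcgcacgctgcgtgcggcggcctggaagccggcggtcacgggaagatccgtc

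Ccnt1, cyclin T1, the regulatory subunit that joins Cdk9 in the elongation factor P-TEFb, had ratios of 0.47, 0.36 and 0.64 in the Cy5 orientation and 0.24, 0.14 and 0.48 in the Cy3 orientation. Every array was above 0, and in each set the Cy5 array was the higher. The mean was 0.39 ± 0.16 (SD, n = 3 sets), or 1.31-fold higher, with an adjusted p of 0.0133 (limma). Without set 1 the mean was 0.40 and was not called (adjusted p = 0.078). A further Ccnt1 probe had ratios on 3 arrays alone, at -2.49 and 2.49 in set 1 and 2.15 in set 2, and did not enter the fit.

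The partners of these cyclins did not pass the test. Cdk9, the kinase of P-TEFb, was at 0.08 ± 0.04, with 0.20 in the Cy5 and -0.05 in the Cy3 orientation. Ccnt2, an alternative partner of Cdk9, was at 0.10 ± 0.05, and Ccnl2, the sister of Ccnl1, at 0.11 ± 0.05 (SD, n = 3 sets for each). The adjusted p-values (limma) were 0.287, 0.18 and 0.171. Ccnt2 was above 0 on all Cy5 arrays (0.29, 0.35 and 0.24) but at 0.02, -0.21 and -0.08 on the Cy3 arrays, and passed the test in the Cy5 orientation alone, at 0.30 (adjusted p = 0.0313). Cdk7 and Ccnh, kinase and cyclin of the complex that activates other CDKs and phosphorylates RNA polymerase II, were at -0.07 and 0.00. Both had opposite signs in the orientations, with Cdk7 at -0.35 in Cy5 and 0.21 in Cy3 and Ccnh at -0.17 and 0.16. For Cdk7 the split was on a single probe, at -0.52, -1.02 and -0.41 in Cy5 and 0.22, 0.85 and 0.25 in Cy3. The other Cdk7 probe had mixed signs within each orientation. Cdk9, Cdk7 and Ccnh were named after their values were seen.

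In the group of CDK inhibitors, 7 were annotated and 5 tested, and the median was -0.21. Of the 5, 2 fell and none rose, where 6.21% of all genes fell and 6.96% rose. All 5 means were below 0, as were those of 4480 of 8331 genes, and 3 of the 5 were not called. Cdkn2d, an INK4 inhibitor of the cyclin D kinases, had ratios of -0.31, -0.31 and -0.42 in the Cy5 orientation and -0.22, -0.43 and -0.37 in the Cy3 orientation. All arrays were low and the orientations overlapped. Its mean fell by 0.34 ± 0.07 on the log2 scale (SD, n = 3 sets), or 1.27-fold, with an adjusted p of 0.0049 (limma), and both of its probes passed.

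Cdkn2c, its INK4 relative, had ratios of -0.13, -0.08 and -0.22 in the Cy5 orientation and -0.19, -0.33 and -0.34 in the Cy3 orientation. These were below 0 on every array and lower in Cy3 in each set. The mean fell by 0.21 ± 0.06 (SD, n = 3 sets), with an adjusted p of 0.0281 (limma). The call was lost without any 1 of the sets, at means of -0.24, -0.22 and -0.18 without sets 1, 2 and 3. Of its 2 probes, 1 passed alone (-0.23) and 1 did not (-0.20).

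Cdkn1b, the Kip inhibitor that restrains cyclin E and cyclin A kinases, was not called at -0.27 ± 0.41 (SD, n = 3 sets; adjusted p = 0.275, limma). Its ratios were -0.54, 0.22 and -0.61 in the Cy5 orientation and -0.40, 0.17 and -0.47 in the Cy3 orientation. Sets 1 and 3 were low and set 2 was high, in both orientations. Without set 2 the mean was -0.51 and was called (adjusted p = 0.0012). The set 2 arrays also had the most missing ratios, and the part of that in the difference was not tested. Cdkn3, a phosphatase that acts on CDKs, and Cdkn2b, another INK4 inhibitor, were both at -0.07 and were not called. Cdkn2b, named after its values were seen, averaged probes at -0.20 and 0.06.

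Among the G1 cyclins and their kinases, 1 of 14 fell, none rose, and the median was -0.02. Ccnd1, cyclin D1, which links growth signals to the G1 kinases, had ratios of -0.14, -0.28 and -0.27 in the Cy5 orientation and -0.19, -0.18 and -0.18 in the Cy3 orientation. It was below 0 on 6 of 6 arrays and its orientations overlapped. The mean fell by 0.21 ± 0.04 (SD, n = 3 sets), or 1.15-fold, with an adjusted p of 0.0241 (limma). The call was lost without any 1 set, at means between -0.23 and -0.19. A further Ccnd1 probe, left out of the fit, was at 0.27, 0.37 and -0.08 on the Cy5 arrays and -0.12 on the Cy3 array of set 1, so the gene's probes did not point one way.

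The other D-type cyclins were not called, with Ccnd2 at 0.00 ± 0.19 and Ccnd3 at -0.07 ± 0.08 (SD, n = 3 sets). The E-type cyclins, which drive entry into S phase, were at -0.07 ± 0.13 for Ccne1 and -0.05 ± 0.16 for Ccne2. Ccne2 was at -0.30 in the Cy5 and 0.20 in the Cy3 orientation. The kinases Cdk4, Cdk2 and Cdk6 were at -0.06 ± 0.09, 0.08 ± 0.12 and 0.23 ± 0.27, with adjusted p-values of 0.513, 0.404 and 0.19 (limma). On its tested probe Cdk6 was near 0 in set 1 (-0.12 and -0.04) and between 0.33 and 0.43 on the other 4 arrays. Without set 1 it was called at 0.39 (adjusted p = 0.0275, limma). A further Cdk6 probe, left out of the fit, was at -0.10 and -0.48 on the Cy5 arrays of sets 1 and 3. On the Cy3 arrays of sets 1 and 2 it was at 0.41 and 0.05, so the gene's probes did not point one way.

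Cdc25a, the phosphatase that removes inhibitory phosphate from Cdk2, lay just outside the threshold. Its ratios were 0.11, 0.27 and 0.12 in the Cy5 orientation and 0.17, 0.06 and 0.22 in the Cy3 orientation, above 0 on 6 of 6 arrays. The mean was 0.16 ± 0.02 (SD, n = 3 sets), with an adjusted p of 0.0511 (limma), and its 2 probes gave 0.16 each. Cdc37l1, a relative of the chaperone partner Cdc37, was below 0 on all arrays, at -0.13 ± 0.03 (adjusted p = 0.0914). Both were called when the 6 arrays were fitted with a dye term, with adjusted p-values of 0.0339 and 0.0313, and with the replicate block they stayed called at 0.0441 and 0.0378. The fit without the block called 17.3% of all genes.

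Of 4 E2F transcription factors tested, 1 rose and 1 fell, with a median of -0.02. E2f6, a repressor that does not bind the retinoblastoma proteins, had ratios of -0.22, -0.21 and -0.28 in the Cy5 orientation and -0.20, -0.25 and -0.18 in the Cy3 orientation. Every array was low and the orientations overlapped. The mean fell by 0.22 ± 0.01 (SD, n = 3 sets), or 1.17-fold, with an adjusted p of 0.0154 (limma), and both probes passed. Without sets 1 and 2 in turn it was not called, at -0.23 and -0.22.

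E2f5, a repressor E2F that works with the pocket protein Rbl2, passed the test at 0.17 ± 0.02 (SD, n = 3 sets; adjusted p = 0.0449, limma), but its orientations did not overlap. It was at 0.35, 0.42 and 0.29 in the Cy5 orientation and at -0.02, -0.05 and 0.01 in the Cy3 orientation. The mean in the Cy3 orientation was -0.02, so the call rests on the Cy5 arrays, and it was lost without any 1 set, at means of 0.17, 0.16 and 0.17. The activators were not called, with E2f1 at -0.05 ± 0.04 and E2f3 at 0.00 ± 0.04. E2f3 was above 0 on the Cy5 arrays (0.23, 0.57 and 0.10) and below 0 on the Cy3 arrays (-0.31, -0.51 and -0.07), a difference of 0.60 between the orientations.

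None of the 12 origin licensing and firing genes passed the test (limma) on set averages or on 6 separate arrays. Of all genes, 13.2% passed on set averages and 17.3% on 6 arrays without the replicate block. A count of 0 of 12 is not read as a contrast to these shares. On set averages 1 of the 12 had an unadjusted p under 0.05, beside 2253 of 8331 genes. The 95% interval lay within 1.5-fold either way for 12 of 12, beside 96.0% of all genes. The median of the 12 was -0.03 and their ratios lay between -0.18 and 0.07. Mcm3ap and Mcm9 were placed in this group by name, and Mcm9 was its highest at 0.07 ± 0.04 (SD, n = 3 sets). The helicase subunits Mcm2, Mcm3, Mcm4, Mcm5, Mcm6 and Mcm7 were at -0.06 ± 0.04, -0.07 ± 0.15, -0.02 ± 0.03, -0.04 ± 0.10, -0.05 ± 0.03 and 0.02 ± 0.13 (SD, n = 3 sets). The widest of these 6 intervals, that of Mcm3, ran from -0.22 to 0.09. The Mcm3 value averages 2 probes that went opposite ways, at 0.13 with 5 of 6 arrays above 0 and at -0.26 with 5 of 6 below, and neither passed the test alone (adjusted p = 0.108 and 0.179, limma). Cdc6, which loads the helicase, was at -0.06 ± 0.02, and Cdc45, a cofactor of the firing helicase, at 0.05 ± 0.01, with probes at 0.11 and -0.01. Cdc7, the kinase that fires origins, was the lowest at -0.18 ± 0.13 (adjusted p = 0.106, limma), with ratios of -0.15, -0.24 and -0.25 in the Cy5 orientation and 0.07, -0.34 and -0.15 in the Cy3 orientation. No member of this group kept 1 sign on all 6 arrays, beside 16 of 71 members (22.5%) and 19.1% of all genes.

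E2F motifs were frequent in the promoters of these same genes. The letters searched, on both strands, were TTCCCGC or TTCGCGC or TTGCCGC or TTGGCGC for E2F, TTTGAA for the cell cycle homology region (CHR), CCAAT for the CCAAT box and TGACTCA for AP-1. RefSeq's GRCm38.p6 table held promoters of 62 of the 75 members. An E2F match was present in 17 of the 62 (27.4%) and in 10.9% of 27025 genes, and in 6 of 11 licensing and firing genes (54.5%). Among members that passed the test 2 of 8 had one, and among those tested and not called 14 of 53. CHR was found in 24.2% of members and 20.2% of all genes, and in 4 of 8 G2 and mitosis genes. CCAAT was found in 59.7% and 41.1%. The AP-1 letters were in 0 of 62 members and 5.95% of all genes. A match is a description of letters and not of binding.

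Mcm6 and Cdk1 are shown as an S phase and a mitotic gene rich in these letters whose ratios were near 0. Mcm6 lies at chr1:128359656-128359955 and Cdk1 at chr10:69352863-69353162, both on the minus strand and printed 5′ to 3′. Capitals mark E2F, CHR and CCAAT matches on either strand, so that GCGCGAA and ATTGG are the reverse strands of E2F and CCAAT. In Mcm6 the capitals hold 5 E2F matches, with TTGGCGC and GCGCGAA overlapping at 2 places, and 2 CCAAT boxes. In Cdk1 they hold 2 E2F, 2 CHR and 3 CCAAT matches.
Mcm6: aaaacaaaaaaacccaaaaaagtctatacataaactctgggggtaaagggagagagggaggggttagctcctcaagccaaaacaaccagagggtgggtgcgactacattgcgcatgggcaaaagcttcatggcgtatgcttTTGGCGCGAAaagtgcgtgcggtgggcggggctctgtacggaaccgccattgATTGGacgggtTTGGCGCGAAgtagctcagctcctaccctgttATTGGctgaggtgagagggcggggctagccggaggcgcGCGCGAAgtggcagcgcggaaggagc
Cdk1: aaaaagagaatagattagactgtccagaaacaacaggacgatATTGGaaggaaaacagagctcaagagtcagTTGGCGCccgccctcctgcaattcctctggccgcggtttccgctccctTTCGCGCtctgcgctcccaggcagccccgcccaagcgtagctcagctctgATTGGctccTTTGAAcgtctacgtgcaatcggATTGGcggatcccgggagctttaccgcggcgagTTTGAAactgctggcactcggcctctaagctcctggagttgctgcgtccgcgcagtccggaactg

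In G2 and mitosis, 1 of 10 members fell, none rose, and the median was 0.01. Cdc25b, the phosphatase that activates Cdk1 at the start of mitosis, had ratios of -0.22, -0.18 and -0.40 in the Cy5 orientation and -0.27, -0.36 and -0.43 in the Cy3 orientation. All were low, and the orientations overlapped. The mean fell by 0.31 ± 0.09 (SD, n = 3 sets), or 1.24-fold, with an adjusted p of 0.011 (limma). Its probes disagreed in size, at -0.45 for the one that passed alone and -0.17 for the one that did not, which was at 0.03 and 0.04 on the first 2 Cy5 arrays. Without set 1 the mean was -0.34 and missed the threshold (adjusted p = 0.0531).

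The mitotic kinase Cdk1 itself was at 0.05 ± 0.02 (SD, n = 3 sets; adjusted p = 0.467, limma). Its ratios were 0.06, -0.10 and -0.01 in the Cy5 orientation and 0.08, 0.21 and 0.07 in the Cy3 orientation, a mixed set of signs. Ccna2, cyclin A2, was at -0.08 ± 0.02 and below 0 on 6 of 6 arrays (-0.12 to -0.03), but did not pass (adjusted p = 0.237). Ccnb2, cyclin B2, was at -0.01 ± 0.08, and Cdc20, which directs the anaphase-promoting complex, at 0.07 ± 0.06. Cdc25c was at 0.02 ± 0.05. Ccnf, an F-box cyclin of ubiquitin ligases, was highest of the group at 0.10 ± 0.09 (adjusted p = 0.243).

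Among the other cyclin-named and CDK-named genes, 16 were annotated and 14 tested, of which 1 rose and 1 fell, with a median of 0.07. Cdk20, the cell cycle related kinase known from primary cilia, had ratios of -0.44, -0.43 and -0.43 in the Cy5 orientation and -0.46, -0.74 and -0.41 in the Cy3 orientation. It was the lowest member, and 5 of its 6 arrays lay between -0.46 and -0.41. The mean fell by 0.49 ± 0.09 (SD, n = 3 sets), or 1.40-fold, with an adjusted p of 0.0018 (limma). Ccng2, cyclin G2, an atypical cyclin known from arrested cells, had ratios of 0.08, 0.14 and -0.01 in the Cy5 orientation and 0.37, 0.44 and 0.28 in the Cy3 orientation. The Cy3 arrays were all above the Cy5 arrays. The mean was 0.22 ± 0.08 (SD, n = 3 sets), with an adjusted p of 0.0317 (limma). One probe passed alone at 0.25, and the other, at 0.18, did not. It was not called without set 1 (0.22) or without set 2 (0.18). Cdk5r2 was above 0 on 6 of 6 arrays, at 0.17 ± 0.11 (SD, n = 3 sets), but was not called. A further Cdk5r2 probe had a ratio on 1 array alone, at -0.55.

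**Figure D3:**
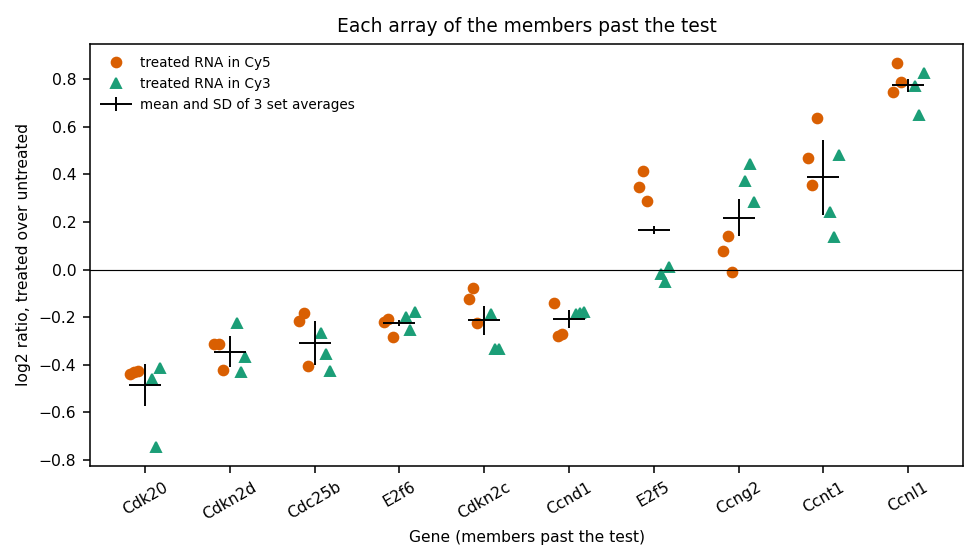
log2 ratio of treated over untreated RNA (vertical axis) on each of 6 arrays for the 10 members past the test (horizontal axis), with circles for treated RNA in Cy5, triangles for treated RNA in Cy3, and bars for the mean and SD of 3 set averages. The symbols overlap for most genes and separate for E2f5 (0.35 against -0.02 on average) and Ccng2 (0.07 against 0.37).

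How far a result held in both dyes differed between the members. Both orientations had the same sign in every array for 8 of the 10 called members, beside 949 of the 1097 genes called in all, the exceptions being E2f5 and Ccng2. In 11 of 71 members (15.5%) the arrays had opposite signs in the 2 orientations, beside 13.7% of all genes. None had a dye difference at an adjusted p under 0.05 in the fit on set averages, where 5 of 8331 genes (0.06%) did, while 16 members had an unadjusted p under 0.05, beside 27.8% of all genes. Fitted on 6 arrays, 3 members had a dye difference (Cdk13, E2f5 and Cdc16), beside 3.32% of all genes, and 4 with the replicate block, Ccnt2 being the further one. Cdk13, a kinase of the RNA polymerase II tail, had the largest orientation difference, at 0.44 in Cy5 and -0.26 in Cy3. It and Cdc16, a subunit of the anaphase-promoting complex at -0.11 and 0.22, were named after their values were seen.

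The spread between sets also varied. The median SD over sets was 0.07 for members and 0.07 for all genes, and 4 of 71 members were in the top 5% of all genes. The 5 widest, chosen after their values were seen, were Cdkn1b (SD 0.41), Cdk16 (0.30), Cdk6 (0.27), Ccnk (0.23) and Ccnd2 (0.19). In each of them the orientations of a set, averaged over complete probes, lay within 0.15 of each other while the sets differed. Single probes could lie further apart. In set 2, 1 Cdkn1b probe was at 0.06 in Cy5 and 0.32 in Cy3, and the other at 0.38 and 0.02. No share over all genes stands beside this closeness, so it is not read as a trait of these members. Cdk16, a PCTAIRE kinase, averaged 0.17, -0.11 and 0.49 in sets 1 to 3, and was called without set 2 at 0.33 (adjusted p = 0.0407, limma). Ccnk, the cyclin partner of Cdk12 and Cdk13, averaged 0.15, -0.18 and 0.26. Set 2 was thus the low set for Cdk16 and Ccnk, the high set for Cdkn1b (0.19) and Ccnd2 (0.20), and like set 3 for Cdk6. Cdk18, another PCTAIRE kinase, named after its values were seen, was also called without set 2.

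**Figure D4:**
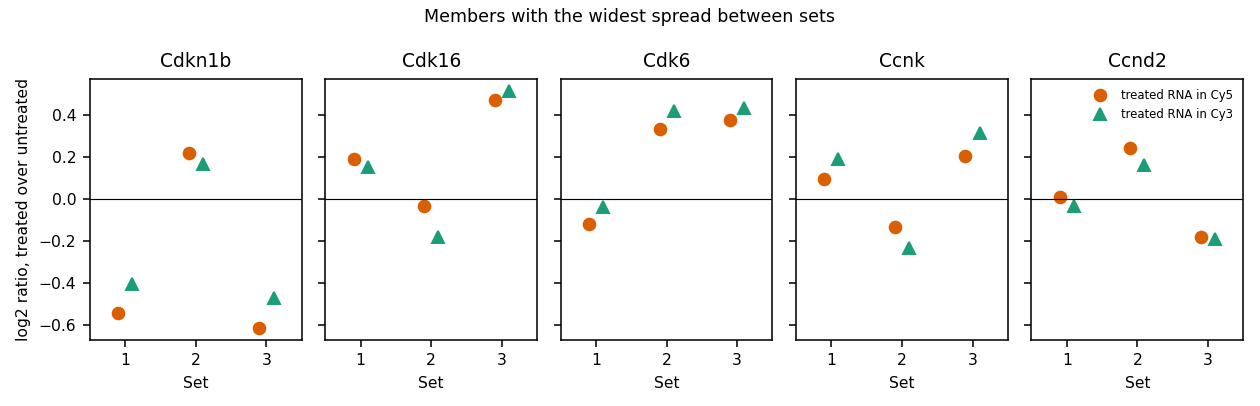
log2 ratio of treated over untreated RNA (vertical axis) in sets 1 to 3 (horizontal axis) for the 5 members of widest spread, with circles for treated RNA in Cy5 and triangles for treated RNA in Cy3. Each symbol is a mean over the gene's complete probes. The paired symbols stay within 0.15 of each other in every set, while Cdkn1b goes from -0.47 in set 1 to 0.19 in set 2 and -0.54 in set 3.

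Genes of the same pathways outside the naming rule were called at a like rate. Of 77 tested, 2 rose and 8 fell, where 6.96% and 6.21% of all genes did. In the replication machinery 1 of 35 rose and 5 fell. Gins3, a subunit of the active helicase, was at -0.71, -0.76 and -0.74 in the Cy5 orientation and -0.47, -0.53 and -0.56 in the Cy3 orientation. It was low on every array and lower in Cy5, and fell by 0.63 ± 0.03 on average (SD, n = 3 sets; adjusted p = 0.00029, limma). Orc5, of the origin recognition complex, fell by 0.38 ± 0.08 (adjusted p = 0.0040), and Gmnn, geminin, which blocks relicensing, by 0.26 ± 0.04 (0.0106). Tk1, thymidine kinase, fell by 0.25 ± 0.10 (0.0271). Orc1, another subunit of the origin complex, at 0.18, and Rfc3, of the clamp loader, at -0.22, were the other 2 called and were named after their values were seen. Orc1 was at 0.13, -0.02 and 0.13 in the Cy5 orientation and 0.30, 0.25 and 0.26 in the Cy3 orientation, so its orientations did not overlap.

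Of 11 pocket proteins and G1 ubiquitin ligases, 1 fell: Rbl2, the pocket protein partner of E2f5, by 0.18 ± 0.03 (SD, n = 3 sets, adjusted p = 0.0351, limma). It was above 0 on 1 array, at 0.02 on the Cy3 array of set 2. Of 31 checkpoint and mitosis genes, 1 rose and 2 fell. Pttg1, securin, which holds back the separation of chromatids, had ratios of -0.36, -0.22 and -0.69 in the Cy5 orientation and -0.55, -0.89 and -0.69 in the Cy3 orientation, and fell by 0.57 ± 0.12 (adjusted p = 0.0016). Prc1, which bundles spindle midzone microtubules, rose by 0.22 ± 0.01 (0.0173). Wee1, the kinase that inhibits Cdk1, fell by 0.17 ± 0.03 (adjusted p = 0.0474, limma), with 1 array above 0, the Cy5 array of set 2 at 0.05. Neither of the rises was called without 1 of the sets, whichever set was left out.

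The members outside the test had no probe with a ratio on all 6 arrays. Cdk5r1, an activator of Cdk5, had 2 probes with 5 ratios each. One was at 0.68 and 0.58 in Cy5 and 0.19, 0.52 and 0.68 in Cy3, and the other at 0.09, 0.45 and -0.38 in Cy5 and 0.25 and 0.69 in Cy3. All but 1 of the 10 ratios were above 0, and a fit that admits incomplete probes gave 0.39 ± 0.09 (SD, n = 3 sets; adjusted p = 0.0046, limma). With an exact 0 kept as a ratio the Cdk5r1 mean was 0.31 and was not called (adjusted p = 0.0542, limma). Cdkn1c, a Kip inhibitor, was at 0.09, 0.06 and 0.11 in Cy5 and -0.42 and 0.06 in Cy3 on 1 probe, and at -1.88 on the only array that measured the other. Cdkn2a, the locus of an INK4 inhibitor and of Arf, was at -0.03 and 0.04 in Cy5 and -0.36 and -0.01 in Cy3. Cdk3, a G1 kinase, was at 0.34 and 0.20 in Cy5 and 0.08 and -0.09 in Cy3. No direction is given for Cdkn1c, Cdkn2a or Cdk3.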

How the data were processed

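The deposited values, 1 per probe and array for 16281 probes on 6 dual-channel arrays, are log2 ratios of the 2 channels. The log base was read from the values: per array, 99.73% to 99.89% of non-zero entries were 6-digit log10 numbers over log10 of 2 (relative tolerance 1e-13), against 0% under base 10 or e. The numerator channel, background correction and normalization are not given in the sources used here. Array medians were near 0, between 0.0043 and 0.0159 as deposited, and how the arrays were centred remains unknown.

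Symbols came from the platform annotation, in which 13738 probes had 1 symbol, 52 had several and 2491 had none, and 13694 probes were found in RefSeq with 0 symbols changed. Probes with a ratio on 6 arrays were averaged per gene, the 2 orientations of a set were averaged, and 3 set averages were tested against 0 with limma 3.58.1 in R 4.3.3 (lmFit, eBayes, two-sided), with Benjamini-Hochberg adjustment over 8331 genes. The dye difference was tested in the same way on unturned averages. The code was tested on simulated data with known changes, in fewer genes than were called here. Of 68 changes of 0.25 on the log2 scale 13.2% were recovered, and of 66 changes of 0.5 it was 92.4%. A gene not called can thus still differ by a small amount. Named genes are every called member, up to 4 members of largest ratio per phase, core members, members with no complete probe, and called genes of the outside lists, up to 4 per list. Others are said to be chosen after their values were seen, were flagged by the closer look below, or are named to describe a group. The members, phase lists and outside lists were chosen with earlier results of these data known. Alternatives varied the replicates, dye orientation, missing ratios, scaling, unit of the fit and threshold.

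Same-numbered arrays were checked for pairing: the correlations of their deviations from the group means were 0.0056, -0.26 and -0.064 for sets 1 to 3, so over all complete probes the numbers did not pair the arrays, although single genes did differ by set. Turned arrays correlated at 0.596 to 0.805 within an orientation and 0.145 to 0.633 across. Precision is limited by the number of arrays, since no intensities were used here.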

Additional observations from a re-analysis of the deposited data

Results flagged for a closer look

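All 71 tested members were examined. Chance alone flags about 1 in 20 groups of 6 arrays for a single distant value. In all, 8 members had 1 array far from the other 5, each time a set 2 array. The rule was run on the members alone, so no share over all genes stands beside this count. It is therefore not read as a trait of the members. On the Cy3 array of set 2, Ccnb2 was highest at 0.22, Cdc20 at 0.20 and Cdc26 at 0.20, while Cdk20 was lowest at -0.74 and Cdkl2 at -0.38. On the Cy5 array of set 2, Ccni was highest at 0.34, Mcm2 was highest at 0.095 and Mcm6 was lowest at -0.15. These arrays had the most missing ratios of their orientation, 23.9% and 17.7%, and the part of this in the values was not tested. Without set 2 Cdk20 was still called and the other 7 were not.

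In 11 members the arrays of each orientation had opposite signs, as means over complete probes. Single probes did not all split this way, as for Cdk7. The mean in Cy5 minus that in Cy3 was 0.69 for Cdk13, 0.60 for E2f3, 0.27 for Ccnd3, 0.26 for Cdc6, 0.26 for Mcm10, 0.25 for Cdk9, 0.18 for Mcm4 and 0.17 for Cdk2ap1, and it was -0.56 for Cdk7, -0.33 for Cdc16 and -0.32 for Ccnh. The adjusted p-values of the dye difference (limma on set averages) lay between 0.114 and 0.189, so none passed the test.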

How the results depend on the processing

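Ccnl1, Cdk20 and Cdkn2d were called under all 12 alternatives for a gene, the stricter threshold of 0.01 among them, and with 1 fit per probe. Ccnt1, Cdc25b and E2f6 were called under 8 of the 12, Ccng2 under 7, and Ccnd1, Cdkn2c and E2f5 under 5. Of 656 values of 51 named genes under an alternative, 571 kept their direction or stayed uncalled, 76 lost the call, 8 gained one, and 35 uncalled values changed sign. E2f5 reversed, to -0.019 with the Cy3 arrays alone.

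The count of 4 members that rose became 2 with the Cy3 arrays alone, 1 with an exact 0 kept as a ratio and 1 at an adjusted p under 0.01. With a set left out it was 2 to 4. That includes Cdk6 without set 1 and Cdk16 and Cdk18 without set 2, which were not among the 4. Without set 1 only Ccnl1 of the 4 stayed called. The count of 6 that fell became 3 with either orientation alone, 3 with an exact 0 kept and 2 at the stricter threshold. With a set left out it was 2 to 4. That includes Cdkn1b without set 2, which was not among the 6. The 0 members with a dye difference (limma; 16 at an unadjusted p) became 3 on 6 arrays and 4 with the replicate block. Of the outside genes, the 2 that rose became 6 on 6 arrays and 5 with the replicate block, 1 with the Cy3 arrays, incomplete probes, an exact 0 kept, median centring, quantile normalization or a fit per probe, 0 at the stricter threshold, and 0 to 0 with a set left out. The 8 that fell became 4 with either orientation alone, 4 with an exact 0 kept and 3 at the stricter threshold, and 3 to 5 with a set left out. Over all genes, 1097 calls became 499 without set 1, 649 with the Cy3 arrays, 522 with an exact 0 kept and 538 at the stricter threshold. The replicate block, a random set effect with a correlation of 0.0825, gave 12 called members, as did 6 arrays without it. Over all complete probes same-numbered arrays did not deviate together, though those of single members such as Cdkn1b did. The median of all genes was -0.01 under each scaling.

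The 3 sets limit precision, and signal over background is unknown. A set-average fit with 2 residual degrees of freedom leans on the shared prior of 4.08. Missing ratios leave 23 member probes incomplete, so a gene can be judged on a part of its probes.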
